A study of Mus musculus with 12 samples.

Results

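This report compares 3 livers labelled Western siAATF with 3 livers labelled chow null, 6 of the 12 RNA sequencing libraries of a mouse study, over every gene in the count table. All were from male C57Bl/6NCrl mice (strain given elsewhere in the labels as C57bl/6, genotype WT) that entered the diets at 6 weeks of age. The chow null mice ate chow with normal water and received, by tail vein after 12 weeks of diet, AAV8-TBG-Null, the control vector. Western siAATF mice ate a western diet with sugar water and received AAV8-TBG-siAATF, made to silence Aatf, at the same point. Livers were collected 12 weeks after the vector. TBG is a promoter active in hepatocytes, so silencing was aimed at those cells and not at the other cells of the liver. All groups carried an AAV8 particle, so neither group is an uninjected liver. Diet and vector insert both differ between these 2 groups and cannot be told apart in this comparison; the Western null livers (same diet, control vector) are given beside it as the other reference point. The libraries of the comparison were chosen by their labels alone, and the question was which genes still differed from the healthy reference livers in the mice that had received the silencing vector.

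Metabolic dysfunction-associated steatohepatitis (MASH) is fatty liver with hepatocyte injury, inflammation and scarring. In its mouse diet models hepatocytes store triglyceride, macrophages that take up lipid gather, stellate cells lay down collagen, and feedback by dietary cholesterol lowers the enzymes that make cholesterol. Aatf encodes a nuclear and nucleolar protein linked to ribosome production, transcription and the response to stress.

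The chow null libraries held 9512246, 2245022 and 9367689 counts and the Western siAATF libraries 4634757, 7614183 and 1989409 counts, in the order of replicates 1, 2 and 3, which is used for all values below. The 18S ribosomal RNA gene took between 4.28% and 30.4% of the counts of a chow null library and between 0.871% and 50.8% of a Western siAATF library. Chow null replicate 2 and Western siAATF replicate 3, the shallowest library of each group, stood apart from the other 4 on the first principal component of the 6 libraries (36.9% of the variance), at 72.6 and 36.4 against -54.5 to -4.78. Both are among the libraries left out in turn below. Levels are in CPM, each gene's count scaled by the library size after TMM normalization. Tests are edgeR quasi-likelihood tests with Benjamini-Hochberg adjustment over the 11934 genes tested, and a gene is said to have risen or fallen where the adjusted p was under 0.05. The labels number the replicates without stating that each was a mouse of its own, so the spread behind every p-value may be partly technical. As markers of liver, 24 plasma protein genes of hepatocytes (Alb, Apoa1, Ttr and others) were all tested, and they summed to 123347, 159930.0 and 123136 CPM in chow null and 127735, 137676 and 87939 CPM in Western siAATF.

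Aatf (chromosome 11, 84313682 to 84404433, minus strand, GRCm39) stood at 36.8, 26.5 and 31.6 CPM in the chow null livers and 27.0, 27.5 and 28.2 CPM in the Western siAATF livers. The ranges overlapped, and the log2 fold change of -0.22 ± 0.25 (standard error; 95% interval -0.74 to 0.31) did not pass (edgeR adjusted p = 0.708). In the Western null livers Aatf stood at 27.6, 21.1 and 30.0 CPM. These are counts over the whole span of the gene in bulk liver, in which RNA of hepatocytes and of other cells is mixed; the Aatf protein was not analysed here.

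Western siAATF livers differed from chow null livers in 290 of 11934 genes tested (2.43%): 150 rose (1.26%) and 140 fell (1.17%). At an unadjusted p under 0.05 there were 2089 genes, and in 2068 genes (17.3%) the 3 libraries of one group did not overlap the 3 of the other. The median log2 fold change of all genes was 0.02. For reference, Western null against chow null, which shares the chow null libraries, gave 1577 genes (13.2%; 6.44% higher and 6.77% lower). Western siAATF against Western null gave 104 (0.871%; 37 higher, 0.31%, and 67 lower, 0.561%), and the diet by vector interaction 23 (0.193%). In an analysis added after the data were seen, without chow null replicate 2 and Western siAATF replicate 3 together, 664 genes passed (344 higher, 320 lower). Leaving out single libraries gave between 53 (without chow null replicate 3) and 632 (without Western siAATF replicate 3). Fitted to these 6 libraries alone, without the spread of the other 6, 24 genes passed. Of the 215 genes chosen by the naming rule 69 passed, and 18 of these passed in all 6 single-library omissions; genes named outside that rule are not in this tally. Of these 18, 9 rose (Apoa4, Cd63, Ly6d, Per2, Per3, Saa3, Ubd, Usp2 and Wee1) and 9 fell (Arntl, Elovl3, Etnppl, Foxq1, Hsd3b5, Pitx3, Sdr9c7, Slco1a4 and Wwox).

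**Figure D1:**
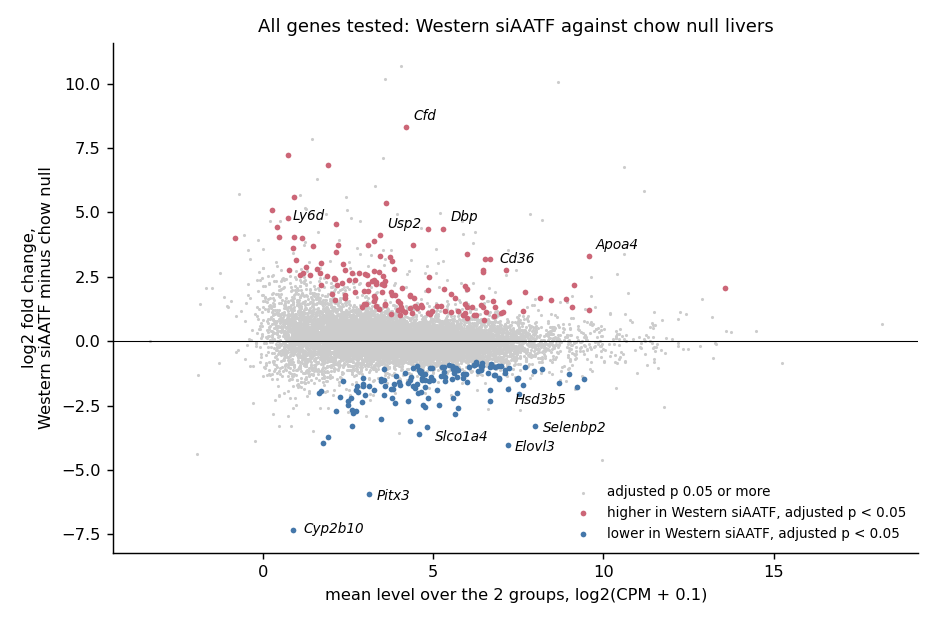
Each point is 1 of the 11934 genes tested. The x axis is its mean level over both groups as log2(CPM + 0.1) and the y axis its log2 fold change, Western siAATF minus chow null. The 150 red genes rose and the 140 blue genes fell at an edgeR adjusted p under 0.05. Fitted folds of genes with a group at or near 0 counts, Cyp2b10, Pitx3 and Cfd among those labelled, depend on the model and are no measure of size.

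Genes of lipid transport, surface proteins and hepatocyte enzymes were among those with the largest differences. Apoa4, an apolipoprotein of triglyceride-rich particles, stood at 99.8, 203 and 119 CPM in chow null and 1850.3, 1137 and 1147 CPM in Western siAATF. Every Western siAATF library was above every chow null library, with a log2 fold change of 3.30 ± 0.34 (edgeR adjusted p = 0.000309). The Western null level of Apoa4 was higher still, at 8474 ± 1699 CPM (SD, n = 3), and the log2 difference of Western siAATF from it was -2.62 ± 0.33 (edgeR adjusted p = 0.000689). Ly6d, a small surface protein of the Ly6 family, stood at 0.457, 0 and 0.261 CPM in chow null and 4.64, 5.67 and 14.96 CPM in Western siAATF. Ubd, which encodes the ubiquitin-like protein FAT10, stood at 0.229, 0 and 0.261 CPM in chow null and 3.54, 2.04 and 6.602 CPM in Western siAATF. Both rose without overlap between the groups (4.57 ± 0.64 and 3.99 ± 0.65 on the log2 scale, edgeR adjusted p = 0.00235 and 0.00640), and both were under their Western null levels of 49.98 ± 19.5 and 16.5 ± 0.691 CPM (edgeR adjusted p = 0.00748 and 0.0376). Igdcc4 had 1 count over the 3 chow null libraries and 93 over the 3 Western siAATF libraries, a ratio of 183 (95% counting interval 32.0 to 7294); such intervals cover counting error only, since the reads carry no molecular identifiers. Crybg2 stood at 0.686, 0 and 0.871 CPM in chow null and 5.31, 4.08 and 14.96 CPM in Western siAATF. Il7, the cytokine interleukin 7, stood at 0.229, 0 and 0.609 CPM in chow null and 3.98, 9.53 and 1.76 CPM in Western siAATF. These genes also rose, from levels near the detection limit in chow null. With 1 library left out, the call was lost for Crybg2 (chow null replicate 1 or 3). It was lost for Il7 without chow null replicate 1, 2 or 3 or Western siAATF replicate 1 or 2. Igdcc4 was tested in only 5 of the 6 omissions.

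In a pair of genes with large differences, 1 library carried most of the signal. Slc25a4, an ADP/ATP carrier of mitochondria that is abundant in muscle, stood at 2.63, 1.69 and 3.05 CPM in chow null and 128, 4.31 and 31.7 CPM in Western siAATF. Ldhb, the lactate dehydrogenase subunit of heart, stood at 1.49, 1.13 and 0.958 CPM in chow null and 43.8, 1.82 and 7.48 CPM in Western siAATF. Both rose, and in both Western siAATF replicate 1 was the highest of the 6 libraries. That library also held transcripts of striated muscle. Over 20 skeletal muscle genes, a list written after these values were seen, it summed to 7303 CPM, against 28.6 and 13.6 CPM in replicates 2 and 3 and between 9.60 and 16.9 CPM in the chow null libraries. Of these 20 genes 6 were tested and 0 passed (edgeR). The low-count filter requires counts in several libraries, so genes counted almost only in Western siAATF replicate 1, Myh4 among them, were left untested. The myosin gene Myh4 had 3968 counts in Western siAATF replicate 1, 5 and 0 in the other Western siAATF libraries, and 0 in all chow null libraries. Des and Tpm2, contractile and filament genes that liver stellate cells share with muscle, were highest there too: Des stood at 175, 5.67 and 3.08 CPM and Tpm2 at 262, 4.08 and 63.8 CPM in Western siAATF. Without Western siAATF replicate 1 the edgeR adjusted p was 0.0512 for Slc25a4 and 0.226 for Ldhb. The call was lost in a single-library omission for Slc25a4 (chow null replicate 1, 2 or 3 or Western siAATF replicate 1 or 3) and Ldhb (chow null replicate 1, 2 or 3 or Western siAATF replicate 1); the part of muscle RNA in them was otherwise not tested.

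Genes that fell included an enzyme of phosphoethanolamine breakdown, a transporter and transcription factors. Etnppl, which breaks down phosphoethanolamine, stood at 77.2, 97.7 and 88.6 CPM in chow null and 11.7, 11.8 and 13.6 CPM in Western siAATF. The groups did not overlap and the libraries within each group were close, with a log2 fold change of -2.83 ± 0.39 (edgeR adjusted p = 0.00235). Slco1a4, an uptake transporter for organic anions, stood at 39.3, 51.4 and 64.8 CPM in chow null and 6.63, 6.13 and 1.76 CPM in Western siAATF (-3.33 ± 0.54, edgeR adjusted p = 0.00831). Pitx3, a homeobox gene, had 413 counts over the chow null libraries and 3 over the Western siAATF libraries, a ratio of 70.1 (95% counting interval 23.8 to 341). Foxq1, a forkhead transcription factor gene, stood at 37.1, 64.4 and 32.0 CPM in chow null and 10.8, 8.17 and 3.52 CPM in Western siAATF. In all of these, every Western siAATF library was below every chow null library. Sdr9c7, a short-chain dehydrogenase gene, stood at 63.4, 32.7 and 44.1 CPM in chow null and 10.4, 10.7 and 1.76 CPM in Western siAATF. Wwox, a very long gene for a WW domain oxidoreductase, stood at 124, 113 and 276 CPM in chow null and 31.8, 44.0 and 25.5 CPM in Western siAATF. Their log2 fold changes were -2.55 ± 0.46 and -2.34 ± 0.33 (edgeR adjusted p = 0.0103 and 0.00235). Adgrf1, Srgap3, Cyp2j9, Clec2h and Selenbp2 also fell, with log2 fold changes of -3.30, -2.67, -2.38, -2.70 and -3.31. Leaving out 1 library ended the call of Adgrf1 (chow null replicate 3 or Western siAATF replicate 1), Srgap3 (chow null replicate 3 or Western siAATF replicate 1), Cyp2j9 (chow null replicate 3 or Western siAATF replicate 1), Clec2h (chow null replicate 1 or 3 or Western siAATF replicate 1) and Selenbp2 (chow null replicate 1, 2 or 3 or Western siAATF replicate 1). Across all genes tested, longer genes had lower fold changes (Spearman rho with gene span -0.273, across genes, which are not independent replicates).

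**Figure D2:**
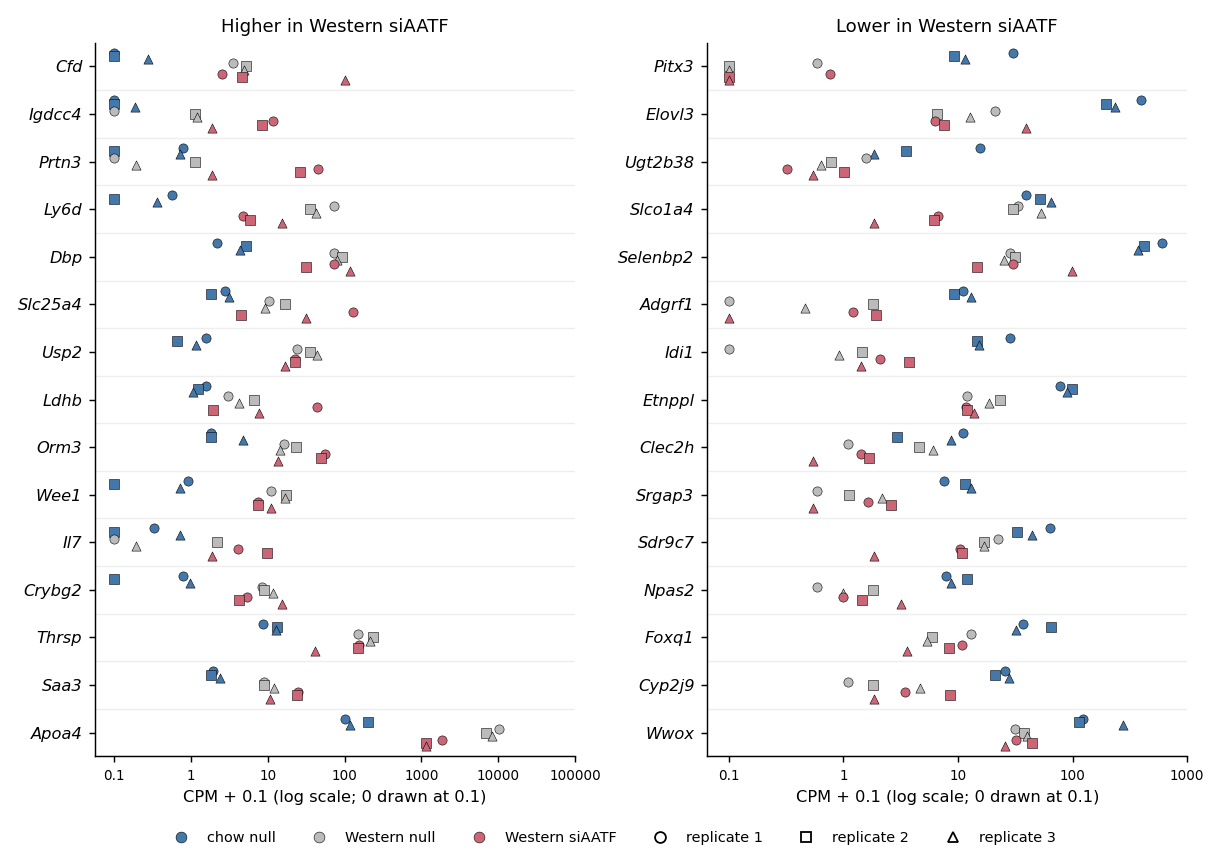
Levels of the 15 higher and the 15 lower genes with the largest fold change, in CPM + 0.1 on a log axis, for the 3 libraries of each group; marker shape is the replicate. In each gene the Western siAATF libraries (red) do not overlap the chow null libraries (blue), as the rule for these genes requires, and the Western null libraries (grey) are shown as a reference. Slc25a4 and Ldhb are highest in Western siAATF replicate 1, and Cfd in replicate 3.

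Core genes of the circadian clock differed in both directions. In the liver clock, Arntl pairs with Clock or Npas2 to switch on genes with E-box sequences, among them Per and Cry genes, which feed back to repress the pair; Dbp, Tef and Hlf then act on D-box sequences. Of 22 listed genes 21 were tested; 8 rose and 3 fell, against 1.26% and 1.17% of all genes. The list's median log2 fold change was 0.71, against 0.02 for all genes. All 3 that fell encode the activating partners. Arntl stood at 32.1, 30.5 and 32.0 CPM in chow null and 7.08, 5.67 and 6.16 CPM in Western siAATF, with libraries close together in both groups (-2.32 ± 0.41, edgeR adjusted p = 0.00999). Npas2 stood at 7.77, 11.9 and 8.53 CPM in chow null and 0.885, 1.36 and 3.08 CPM in Western siAATF. Clock stood at 103, 40.7 and 80.5 CPM in chow null and 22.3, 39.0 and 24.6 CPM in Western siAATF, so that the lowest chow null library, replicate 2, was just above the highest Western siAATF library.

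The repressor genes Per2 and Per3 rose. Per3 stood at 2.40, 3.39 and 4.79 CPM in chow null and 25.9, 22.2 and 27.3 CPM in Western siAATF (2.80 ± 0.40, edgeR adjusted p = 0.00235). Per2 stood at 2.74, 0 and 4.09 CPM in chow null and 27.4, 22.2 and 25.5 CPM in Western siAATF (3.12 ± 0.52, edgeR adjusted p = 0.00769). In both genes the 3 Western siAATF libraries were within a narrow range and well above every chow null library. Bhlhe40 and Bhlhe41, repressors that bind E-boxes, rose by 1.44 and 2.65 on the log2 scale; Bhlhe41 was low in all 6 libraries, at most 5.72 CPM. Among output genes, Dbp stood at 2.06, 5.08 and 4.27 CPM in chow null and 72.8, 30.9 and 119 CPM in Western siAATF, and Tef at 27.7, 59.9 and 50.7 CPM in chow null and 128, 98.3 and 138 CPM in Western siAATF. Usp2, a deubiquitinase gene that follows the clock, stood at 1.49, 0.565 and 1.04 CPM in chow null and 22.3, 22.2 and 16.7 CPM in Western siAATF (4.12 ± 0.47, edgeR adjusted p = 0.000733); 65.7% of its span overlaps other genes, where reads may go uncounted. Wee1, a kinase gene of the cell cycle under clock control, stood at 0.7999, 0 and 0.609 CPM in chow null and 7.30, 7.26 and 11.004 CPM in Western siAATF. These 4 output genes rose.

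The clock genes that did not pass included the repressors Per1 (0.73 on the log2 scale), Cry1 (-0.31) and Cry2 (0.60), the nuclear receptors Nr1d1 (0.23), Nr1d2 (0.71) and Rora (-0.54), and Nfil3 (-0.91), Hlf (-0.21) and Noct (0.69). In the Western null livers Arntl stood at 3.76 ± 0.898, Per3 at 21.2 ± 4.82 and Dbp at 81.8 ± 10.95 CPM (SD, n = 3). Western siAATF against Western null did not pass for these 3 genes (edgeR adjusted p = 0.5998, 0.876 and 0.953). The labels give no hour of collection, so the part of collection time was not tested. The number of members that rose was 4 without chow null replicate 1, chow null replicate 3 or Western siAATF replicate 1, and 5 without chow null replicate 2; the number that fell was 1 without chow null replicate 3 or Western siAATF replicate 1 and 2 without chow null replicate 1. With only the 6 libraries compared in the fit 4 rose and 1 fell.

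Promoter sequence is shown for 3 clock genes that rose, since each holds a clock element in its promoter, from RefSeq on GRCm38.p6 (the counts use GRCm39, and no coordinates are carried between the builds). The elements were searched on both strands in windows from 250 bases before to 50 after each annotated start: the E-box CACGTG, which 7.15% of all 32851 promoter windows hold, and the D-box TTATGTAA, which 0.938% hold. Tef, chr15:81802486-81802611, plus strand, has an E-box 127 bases before 1 of its 2 annotated starts. Bhlhe41, chr6:145865508-145865633, minus strand, has an E-box 153 bases before its start. Per3, chr4:151044756-151044915, minus strand, holds 2 D-boxes, the first 205 bases before its start.

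The stretches below run 5′ to 3′ along the gene and end before the annotated start; capitals mark the element.
Tef: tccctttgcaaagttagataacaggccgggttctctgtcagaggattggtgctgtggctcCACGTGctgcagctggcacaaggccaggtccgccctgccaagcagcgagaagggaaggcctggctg
Bhlhe41: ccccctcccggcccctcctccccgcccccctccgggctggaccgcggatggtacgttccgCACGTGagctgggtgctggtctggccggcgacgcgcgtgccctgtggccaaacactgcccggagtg
Per3: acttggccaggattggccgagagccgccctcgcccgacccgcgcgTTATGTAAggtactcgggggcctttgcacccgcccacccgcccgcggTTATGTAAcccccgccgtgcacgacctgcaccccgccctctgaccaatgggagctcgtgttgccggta
Of the 18 clock genes with a promoter in the table, 5 hold an E-box (Per1, Cry1, Tef, Ciart and Bhlhe41), of which Tef and Bhlhe41 rose, and 1 holds a D-box (Per3). Counted by gene in the same way, 8.09% of all genes with a promoter hold the E-box and 1.11% the D-box. The ROR element core AGGTCA, which 18.1% of all genes with a promoter hold, is in 5 of the 18 (Arntl and Clock, which fell, and Per1, Nr1d2 and Nfil3). A match describes the letters in the window, not binding, and no match says only that they are not in it.

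**Figure D3:**
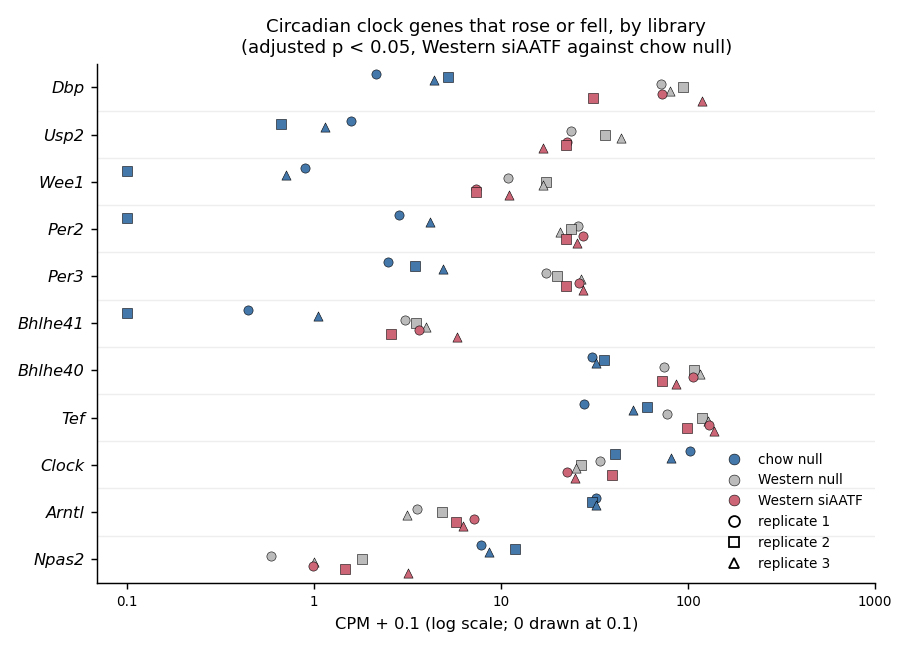
Levels of the 11 clock genes that rose or fell, in CPM + 0.1 on a log axis, ordered by log2 fold change (highest at the top); colours are groups and shapes replicates. The Western siAATF libraries (red) lie apart from the chow null libraries (blue) in each of them; the Western null libraries (grey) are the other reference.

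Of 7 genes tested that were listed under fatty acid uptake and binding 3 rose, and of 12 lipid droplet protein genes 0 passed (edgeR). Hepatocytes take up fatty acids through carriers such as Cd36, make them under the control of Srebf1, and store them in droplets coated by perilipins and Cide proteins. The 3 were Apoa4, Cd36 and Fabp4, out of 19 genes in the whole list, against 1.26% of all genes. Of these, Apoa4 encodes an apolipoprotein and not a fatty acid carrier. Over the 19 genes the median log2 fold change was 0.91, and 0.12 without Western siAATF replicate 3. The carriers Fabp1 (-0.23 on the log2 scale), Slc27a2 (0.22) and Slc27a5 (0.15) did not pass. Cd36 stood at 14.1, 20.3 and 26.03 CPM in chow null and 83.8, 103 and 366 CPM in Western siAATF, where replicate 3 was the highest (3.18 ± 0.53, edgeR adjusted p = 0.0101). Fabp4, a fatty acid carrier of adipocytes and macrophages, stood at 2.97, 1.69 and 1.92 CPM in chow null and 11.1, 6.81 and 25.1 CPM in Western siAATF. In Western null, Cd36 stood at 292 ± 36.8 and Fabp4 at 16.5 ± 7.62 CPM (SD, n = 3). The coat genes Plin2, Cidec and Cidea did not pass. Plin2 stood at 548, 671 and 502 CPM in chow null and 186, 195 and 1805 CPM in Western siAATF; replicates 1 and 2 were below, and replicate 3 above, all chow null libraries. Without Western siAATF replicate 3 its log2 fold change was -1.60 (edgeR adjusted p = 0.00112), against 0.34 with all 6 libraries. Cidec stood at 3.66, 9.03 and 7.66 CPM in chow null and 5.97, 12.3 and 131 CPM in Western siAATF. Cidea stood at 0.229, 0 and 0 CPM in chow null and 0.885, 3.18 and 105 CPM in Western siAATF. With 1 library left out, the call was lost for Cd36 (chow null replicate 1) and Fabp4 (chow null replicate 3).

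Of 22 fatty acid synthesis genes tested, 2 rose and 1 fell, against 1.26% and 1.17% of all genes. Their median was 0.23, and 0.12 without Western siAATF replicate 3. Thrsp, a nuclear protein of lipogenic tissues, stood at 8.46, 12.99 and 12.5 CPM in chow null and 155, 148 and 41.4 CPM in Western siAATF (3.37 ± 0.53, edgeR adjusted p = 0.00778). Srebf1, the transcription factor gene of the pathway, stood at 107, 233 and 191 CPM in chow null and 543, 323 and 725 CPM in Western siAATF (1.59 ± 0.36, edgeR adjusted p = 0.0287). Both rose without overlap between the groups. Elovl3, an elongase of long fatty acids, fell, from 392, 194 and 234 CPM in chow null to 6.19, 7.49 and 39.2 CPM in Western siAATF (-4.04 ± 0.66, edgeR adjusted p = 0.0118). The desaturase gene Scd1 stood at 1969, 4779 and 3839 CPM in chow null and 5479, 6413 and 10401 CPM in Western siAATF, with no overlap, and did not pass (edgeR adjusted p = 0.135). Fasn, the fatty acid synthase, stood at 192, 493 and 348 CPM in chow null and 571, 367 and 697 CPM in Western siAATF and did not pass. Of 27 fatty acid oxidation and ketogenesis genes, 1 rose, against 1.26% of all genes: Vnn1, a pantetheinase under control of PPAR alpha, which stood at 29.4, 21.5 and 18.4 CPM in chow null and 53.5, 88.7 and 313 CPM in Western siAATF. The summed level of that list was 8217, 9347 and 8714 CPM in chow null and 6818, 8037 and 37914 CPM in Western siAATF, so replicate 3 stood far above the rest. The median of that list was 0.54; without Western siAATF replicate 3 it was -0.28, and 3 members fell. Of 19 sugar handling genes 1 fell, against 1.17% of all genes (3 without Western siAATF replicate 3): Irs1, the adaptor of the insulin receptor, which stood at 72.0, 72.8 and 71.5 CPM in chow null and 26.5, 32.0 and 40.5 CPM in Western siAATF, closely grouped in chow null. The call was lost in a single-library omission for Thrsp (chow null replicate 3), Srebf1 (chow null replicate 1 or 3 or Western siAATF replicate 1), Vnn1 (chow null replicate 1, 2 or 3) and Irs1 (chow null replicate 3 or Western siAATF replicate 1).

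Of 24 cholesterol synthesis and uptake genes tested, 4 fell and 0 rose, against 1.17% and 1.26% of all genes. The pathway runs from acetyl-CoA through HMG-CoA and isoprenoids to lanosterol and cholesterol, and SREBP2 switches its genes on when cell cholesterol is low. The list's median log2 fold change was -0.82, against 0.02 for all genes. Hmgcs1, the synthase of HMG-CoA, stood at 231, 175 and 133 CPM in chow null and 40.5, 53.8 and 102 CPM in Western siAATF (-1.47 ± 0.34, edgeR adjusted p = 0.0331). Idi1, an isoprenoid isomerase, stood at 28.3, 14.7 and 15.1 CPM in chow null and 1.99, 3.63 and 1.32 CPM in Western siAATF (-3.005 ± 0.57, edgeR adjusted p = 0.0132). After lanosterol, Cyp51 stood at 111, 68.9 and 56.5 CPM in chow null and 16.6, 26.6 and 6.16 CPM in Western siAATF. Nsdhl, which acts later in the same branch, stood at 22.9, 21.5 and 23.4 CPM in chow null and 3.76, 5.90 and 5.28 CPM in Western siAATF. In each of the 4 genes the groups did not overlap. In Western null, Hmgcs1 stood at 69.4 ± 2.98 and Idi1 at 0.724 ± 0.685 CPM (SD, n = 3); edgeR adjusted p for Western siAATF against Western null was 0.945 and 0.485. The number that fell was 0 without Western siAATF replicate 1, 1 without chow null replicate 1 or 3, 2 without chow null replicate 2, and 7 without Western siAATF replicate 3.

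The promoter of Hmgcs1 is shown because it holds a sterol response element of the form TCACNCCAC, in capitals, 137 bases before the start; the stretch is chr13:119690154-119690282, plus strand, on RefSeq GRCm38.p6.
Hmgcs1: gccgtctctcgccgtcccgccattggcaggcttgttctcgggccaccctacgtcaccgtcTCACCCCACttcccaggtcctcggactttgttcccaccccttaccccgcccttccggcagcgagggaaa
Of 18 listed cholesterol genes with a promoter in the table it was the 1 to hold that motif, which 1.44% of all genes with a promoter hold.

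Of 19 genes of bile acid synthesis and sterol efflux 1 rose, against 1.26% of all genes: Cyp7a1, the rate-limiting enzyme of bile acid synthesis. It stood at 18.6, 19.8 and 22.03 CPM in chow null and 64.4, 119 and 33.0 CPM in Western siAATF (1.84 ± 0.38, edgeR adjusted p = 0.0176), and at 82.6 ± 14.9 CPM in Western null (SD, n = 3). Cyp7b1, of the alternative pathway, stood at 1325, 292 and 511 CPM in chow null and 181, 401 and 147 CPM in Western siAATF and did not pass. The Cyp7a1 call was lost without any 1 of the chow null libraries (edgeR adjusted p = 0.0687, 0.0516 and 0.0949).

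**Figure D4:**
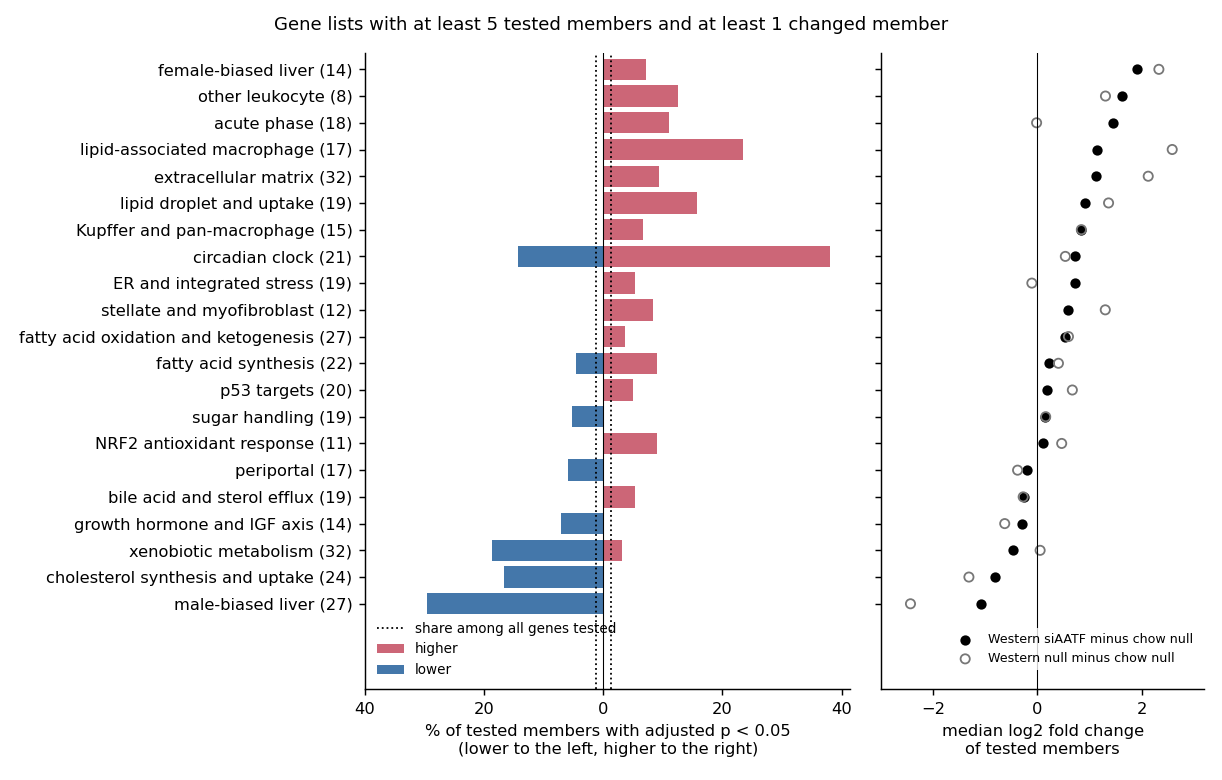
Gene lists with at least 5 tested members (number in brackets) and at least 1 that differed, ordered by median. Left, the percent of tested members that rose (red) or fell (blue); dotted lines mark the 1.26% and 1.17% of all genes tested. Right, the list median log2 fold change of Western siAATF minus chow null (filled) and of Western null minus chow null (open), which share the chow null libraries. Among the lists drawn, clock genes have the highest share of higher members and male-biased genes the highest share of lower members.

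Of 27 genes with male-biased expression in mouse liver, 8 fell and 0 rose, against 1.17% and 1.26% of all genes. This sex bias is set by pulses of growth hormone, which act through STAT5B. The list's median log2 fold change was -1.09. Hsd3b5, a steroid dehydrogenase of male liver, stood at 258, 230.4 and 197 CPM in chow null and 81.6, 75.3 and 30.4 CPM in Western siAATF (-1.86 ± 0.36, edgeR adjusted p = 0.0145). In Western null it stood at 0, 1.70 and 0.449 CPM, so the Western siAATF libraries lay between both references, with a log2 difference of 6.54 ± 0.55 from Western null (edgeR adjusted p = 8.39e-06). Gstp1, a glutathione transferase, stood at 840.1, 477 and 559 CPM in chow null and 219, 270.3 and 118 CPM in Western siAATF. Ugt2b1, a glucuronosyltransferase, stood at 460.4, 357 and 388 CPM in chow null and 136, 212 and 219 CPM in Western siAATF. Both fell without overlap between the groups. The other members that fell were Elovl3, Selenbp2, Susd4 (-1.90 on the log2 scale), Cyp2u1 (-1.49) and Ugt2b38 (-3.70). Serpina1e, a serum protease inhibitor, stood at 7641, 5503 and 5054 CPM in chow null and 1514, 1465 and 93.8 CPM in Western siAATF and did not pass (edgeR adjusted p = 0.0837); Western siAATF replicate 3 was the lowest. Mup20, a major urinary protein, stood at 7699, 1194 and 1602 CPM in chow null and 3453, 6729 and 1189 CPM in Western siAATF and did not pass. Reads of Serpina1, Mup, Ugt2b and glutathione transferase genes may be split between near-identical copies, so their levels are uncertain. The number that fell was 2 without chow null replicate 1 or Western siAATF replicate 1, 3 without chow null replicate 3 and 11 without Western siAATF replicate 3. It was 0 with only the 6 libraries compared in the fit, 2 after thinning to equal depth, 4 with the replicate block and 14 with no low-count filter. A STAT5 motif of the form TTCNNNGAA, which 9.55% of all genes with a promoter hold, was in 2 of the 19 listed genes with a promoter in the table (C8a and Keg1) and in 0 of the 6 among them that fell.

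Stat5b itself fell, the 1 of 14 growth hormone and IGF genes to pass. Among all genes 1.17% fell and 1.26% rose. Stat5b stood at 87.5, 112 and 96.4 CPM in chow null and 59.9, 44.9 and 55.9 CPM in Western siAATF (-0.88 ± 0.21, edgeR adjusted p = 0.0346). Ghr, the growth hormone receptor, stood at 836, 383 and 846 CPM in chow null and 244, 508 and 256 CPM in Western siAATF. Igf1, its main target in liver, stood at 671, 291 and 396 CPM in chow null and 282, 594 and 146 CPM in Western siAATF. Neither passed, and chow null replicate 2 was the lowest of its group for both. Of 14 female-biased genes tested 1 rose, against 1.26% of all genes: Ntrk2, a neurotrophin receptor. Ntrk2 stood at 0.457, 0 and 0.174 CPM in chow null and 3.98, 5.90 and 0 CPM in Western siAATF, with Western siAATF replicate 3 at 0. Cyp2b9, a cytochrome of female liver, stood at 0.914, 5.08 and 6.97 CPM in chow null and 0, 0.227 and 328 CPM in Western siAATF, so replicate 3 was apart from the other 2; it did not pass. Leaving out 1 library ended the call of Stat5b (chow null replicate 1, 2 or 3 or Western siAATF replicate 1 or 2) and Ntrk2 (chow null replicate 1, 2 or 3 or Western siAATF replicate 1 or 2).

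Of 32 genes that metabolise drugs and other foreign compounds, 6 fell and 1 rose, against 1.17% and 1.26% of all genes. Cytochrome P450 enzymes oxidise such compounds and glutathione transferases conjugate them. The list's median log2 fold change was -0.47. Cyp2c29, an abundant liver cytochrome, stood at 812, 1128 and 1094 CPM in chow null and 270.5, 441 and 388 CPM in Western siAATF (-1.46 ± 0.31, edgeR adjusted p = 0.0195). Cyp2b10, a target of the receptor CAR, had 67 counts over the chow null libraries and 0 in each Western siAATF library; the level was at least 11.4-fold lower at a floor of 3 counts over the group. Gstp1, Gstm3, Gsta4 and Gstm1 were the other members that fell. Por, the reductase that feeds electrons to P450 enzymes, rose, at 200.2, 274 and 223 CPM in chow null and 449.6, 453 and 1246 CPM in Western siAATF. Cyp3a11, the main cytochrome for drugs, stood at 2395, 1746 and 2006 CPM in chow null and 92.4, 269.6 and 1384 CPM in Western siAATF, with each Western siAATF library under all of chow null, and did not pass (edgeR adjusted p = 0.272). Aox3, an aldehyde oxidase chosen after its values were seen, fell, at 1122, 720.5 and 949.5 CPM in chow null and 220.5, 361 and 242 CPM in Western siAATF. The number that fell was 0 without Western siAATF replicate 1 or chow null replicate 3, 4 without chow null replicate 1 or 2, and 16 without Western siAATF replicate 3, where the list's median was -0.99. The number that rose was 0 without chow null replicate 1 or 3, and with only the 6 libraries compared in the fit 0 members rose and 0 fell. The antioxidant response element core TGACNNNGC, which 14.0% of all genes with a promoter hold, was in 1 of the 33 listed genes with a promoter in the table, Gsta3, and in 0 of the 6 among them that passed.

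Under the conditions of the naming rule, 5 genes passed in the same direction against both null groups. These conditions were a mean of at least 5 CPM in Western siAATF or chow null, no overlap with either null group, and no predicted gene models. Genes that did not meet them were not counted. Slco1a4, Gstm3, Gsta4 and Gstm1 were lower than in both, and Prtn3 was higher. The 2 contrasts share the Western siAATF libraries, so they are not independent. Slco1a4 stood at 33.6, 30.0 and 52.7 CPM in Western null, and its Western siAATF level differed from that by -2.93 ± 0.54 on the log2 scale (edgeR adjusted p = 0.0196). Gstm3 stood at 11.3, 5.08 and 12.7 CPM in chow null and 1.77, 3.63 and 0.880 CPM in Western siAATF, and at 45.9, 39.5 and 68.4 CPM in Western null. Its log2 differences were -2.19 ± 0.44 from chow null and -4.51 ± 0.44 from Western null (edgeR adjusted p = 0.0158 and 4.69e-05). Gsta4 stood at 27.3, 41.2 and 35.6 CPM in chow null and 6.41, 7.49 and 20.2 CPM in Western siAATF, and at 37.5, 56.6 and 49.5 CPM in Western null. Gstm1 stood at 672, 843 and 632 CPM in chow null and 187, 194 and 503 CPM in Western siAATF, with replicate 3 closest to the null groups, and at 1105, 978 and 1104 CPM in Western null. These 3 encode glutathione transferases, a family with many targets of the antioxidant factor NRF2. Gsta1, of the same family, had 0 counts in chow null and in Western siAATF and 82 in Western null. Of 11 NRF2 response genes tested 1 rose, against 1.26% of all genes: Hmox1, heme oxygenase. Hmox1 stood at 10.97, 7.34 and 15.1 CPM in chow null and 69.9, 55.8 and 11.4 CPM in Western siAATF, where replicate 3 lay within the chow null range. Gclc and Txnrd1, other NRF2 targets, did not pass (-0.89 and 0.31 on the log2 scale).

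Prtn3, a protease of neutrophil granules, stood at 0.686, 0 and 0.609 CPM in chow null and 44.2, 25.9 and 1.76 CPM in Western siAATF, and at 0, 1.02 and 0.0898 CPM in Western null. All Western siAATF libraries were above all of both null groups, with replicates 1 and 2 far above replicate 3 (5.37 ± 0.98 against chow null, edgeR adjusted p = 0.0148). Of a list of 12 granule genes written after the values were seen, Prtn3 among them, 6 were tested and 1 passed, Prtn3 (edgeR). Among all genes 2.43% passed in either direction. Over the 12 genes Western siAATF summed to 908, 839 and 22.01 CPM and chow null to between 23.4 and 30.0 CPM, most of it in Western siAATF replicates 1 and 2 from Lcn2, which hepatocytes also make. Ngp had 102, 75 and 3 counts in Western siAATF and 0 in chow null. Camp had 95, 45 and 1 counts in Western siAATF and 1 in chow null. Mpo had 66, 37 and 0 counts in Western siAATF and 9 in chow null. Cebpe, a transcription factor of the same cells, stood at 7.66, 7.91 and 6.27 CPM in chow null and 10.4, 5.45 and 5.28 CPM in Western siAATF, with overlap. Ly6g, a surface marker of neutrophils, had 3 counts in all in Western siAATF and 0 in chow null; the part of these cells in the Prtn3 result was not tested. With 1 library left out, the call was lost for Prtn3 (chow null replicate 1 or 3). Prtn3 was tested in 5 of the 6 omissions, and its call held in 3. The call was also lost for Gstm3 (chow null replicate 3 or Western siAATF replicate 1). For Gsta4 it was lost without chow null replicate 2 or 3 or Western siAATF replicate 1. For Gstm1 and Hmox1 it was lost without chow null replicate 1, 2 or 3 or Western siAATF replicate 1 or 2.

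Of 17 genes of lipid-associated macrophages, 4 rose and 0 fell, against 1.26% and 1.17% of all genes. The low-count filter covered all groups, and members near 0 in chow null, such as Trem2 and Mmp12, could hardly fall. These macrophages gather in fatty liver and express Trem2, Gpnmb, Cd9 and Spp1; Kupffer cells are the resident macrophages. In bulk liver, more cells of a type and more RNA per cell cannot be told apart. The list's median log2 fold change was 1.14. Cd63, a tetraspanin of lysosomes, stood at 1.37, 1.13 and 1.22 CPM in chow null and 8.62, 6.13 and 6.16 CPM in Western siAATF (2.45 ± 0.35, edgeR adjusted p = 0.00235), and was under its Western null level of 29.2 ± 2.78 CPM (SD, n = 3; edgeR adjusted p = 0.00207). Itgax, the integrin CD11c, stood at 0.457, 1.13 and 0.784 CPM in chow null and 6.41, 7.94 and 2.20 CPM in Western siAATF. In both genes the groups were separate, and the chow null libraries were near the detection limit. Trem2, a lipid receptor, had 3 counts over the chow null libraries and 29 over the Western siAATF libraries, a ratio of 19.0 (95% counting interval 5.89 to 97.4). Mmp12, a macrophage elastase, had 1 and 12 counts, a ratio of 23.6 (95% counting interval 3.49 to 1008). Its Western siAATF libraries stood at 0.663, 2.04 and 0 CPM, so replicate 3 was not above chow null (edgeR adjusted p = 0.0488). Gpnmb, a glycoprotein of lipid-laden macrophages, stood at 0.457, 0 and 0.0871 CPM in chow null and 0.885, 0.681 and 0.440 CPM in Western siAATF, and at 43.0, 48.0 and 51.9 CPM in Western null; its difference from chow null did not pass (edgeR adjusted p = 0.340). Spp1, osteopontin, stood at 12.5, 3.39 and 14.6 CPM in chow null and 18.6, 38.1 and 15.4 CPM in Western siAATF, and at 199, 88.3 and 167 CPM in Western null, and did not pass against chow null. The number that rose was 1 without chow null replicate 1 or 3 and 2 without Western siAATF replicate 1. It was 0 with only the 6 libraries compared in the fit, where 14 of the genes were tested. Of 6 single-library omissions, the call held in 6 for Cd63, 4 for Itgax, 3 for Trem2 and 1 for Mmp12.

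Of 15 Kupffer and general macrophage genes 1 rose, against 1.26% of all genes: Mpeg1, which encodes the pore protein perforin-2. Mpeg1 stood at 76.7, 35.6 and 49.98 CPM in chow null and 184, 222 and 77.9 CPM in Western siAATF. Clec4f, a Kupffer cell lectin, stood at 67.0, 116 and 62.5 CPM in chow null and 215, 162 and 112 CPM in Western siAATF and did not pass. Of 8 other leukocyte genes tested 1 rose, against 1.26% of all genes: Itgb2, the shared integrin chain of leukocytes. Itgb2 stood at 15.1, 9.03 and 6.44 CPM in chow null and 49.8, 32.5 and 14.96 CPM in Western siAATF. The 8 were pan-leukocyte, neutrophil and monocyte genes, and 0 of the 13 listed genes of T, B and NK cells were tested. The immunoglobulin light chain locus Igk, chosen after its values were seen, rose, at 27.5, 30.5 and 10.8 CPM in chow null and 199, 149 and 109 CPM in Western siAATF (2.78 ± 0.47, edgeR adjusted p = 0.0101). The groups did not overlap for Mpeg1 and Igk. The call was lost in a single-library omission for Mpeg1 and Itgb2, in both without chow null replicate 2 or 3 or Western siAATF replicate 1 or 2. Without Western siAATF replicate 3, 2 general macrophage genes, 0 of 6 resident Kupffer genes and 5 other leukocyte genes rose.

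Of 32 extracellular matrix genes, 3 rose and 0 fell, against 1.26% and 1.17% of all genes. Stellate cells that become myofibroblasts make fibrillar collagens and the proteins that organise them. The matrix list had a median log2 fold change of 1.13. Col5a2, a chain of the collagen that starts fibrils, stood at 4.799, 2.82 and 4.44 CPM in chow null and 27.4, 14.5 and 16.3 CPM in Western siAATF (2.19 ± 0.46, edgeR adjusted p = 0.0198). Sparc, a collagen-binding protein, stood at 25.8, 43.5 and 28.7 CPM in chow null and 73.4, 50.4 and 93.3 CPM in Western siAATF. Col6a3, of the microfibril collagen, stood at 9.71, 19.8 and 12.8 CPM in chow null and 39.6, 19.5 and 47.5 CPM in Western siAATF, with replicate 2 of each group level. Vim, vimentin, was the 1 of 12 stellate and myofibroblast genes to rise, at 11.8, 28.8 and 18.02 CPM in chow null and 59.5, 29.5 and 58.1 CPM in Western siAATF. The main scar collagens had wide spread and did not pass. Col1a1 stood at 3.1995, 18.1 and 5.22 CPM in chow null and 48.7, 11.6 and 123 CPM in Western siAATF, where replicate 2 lay within the chow null range (3.04 ± 0.86, edgeR adjusted p = 0.101). Col3a1 stood at 20.2, 72.3 and 24.99 CPM in chow null and 141, 56.3 and 278 CPM in Western siAATF. In Western null, Col1a1 stood at 271 ± 75.2 and Col3a1 at 534 ± 62.2 CPM (SD, n = 3). Acta2, the smooth muscle actin of myofibroblasts, was at most 3.95 CPM in chow null and 3.54 CPM in Western siAATF. The matrix count was 0 with only the 6 libraries compared in the fit, and 0 without chow null replicate 1 or 3 or Western siAATF replicate 1, 1 without Western siAATF replicate 3, 5 without chow null replicate 2 and 13 without Western siAATF replicate 2; the Vim call was lost without chow null replicate 1 or 3 or Western siAATF replicate 1.

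Acute phase genes, which hepatocytes raise in inflammation, differed between the Western siAATF libraries. Of 18 tested 2 rose and 0 fell, against 1.26% and 1.17% of all genes, with a list median of 1.44. Saa3, a serum amyloid made also by macrophages, stood at 1.83, 1.69 and 2.26 CPM in chow null and 24.8, 23.6 and 10.6 CPM in Western siAATF (3.31 ± 0.45, edgeR adjusted p = 0.00235). Orm3, an orosomucoid, stood at 1.71, 1.69 and 4.70 CPM in chow null and 55.1, 49.7 and 13.6 CPM in Western siAATF. Both rose in all 3 libraries. Saa1, the main serum amyloid of liver, stood at 106, 71.7 and 65.2 CPM in chow null and 8506, 5138 and 61.2 CPM in Western siAATF, and at 191, 145 and 284 CPM in Western null. Saa2, its close copy, stood at 46.9, 23.2 and 15.1 CPM in chow null and 4878, 4442 and 25.97 CPM in Western siAATF. Lcn2, lipocalin 2, stood at 10.9, 12.99 and 19.1 CPM in chow null and 684, 634 and 10.6 CPM in Western siAATF. In these 3 genes replicates 1 and 2 were far above all chow null libraries and replicate 3 was within or below their range, and none passed (edgeR adjusted p = 0.0882, 0.0752 and 0.144). The number that rose was 1 without chow null replicate 1 and 11 without Western siAATF replicate 3; the Orm3 call was lost without chow null replicate 1.

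Of 19 endoplasmic reticulum and integrated stress genes 1 rose, against 1.26% of all genes: Hspa5, a chaperone. Hspa5 stood at 119, 163 and 124 CPM in chow null and 599.7, 433 and 263 CPM in Western siAATF (1.68 ± 0.35, edgeR adjusted p = 0.0191). Of its span 81.0% overlaps another gene. Creld2, induced by the same stress, stood at 15.2, 28.2 and 17.2 CPM in chow null and 149, 94.9 and 33.9 CPM in Western siAATF and did not pass. Ddit3 (CHOP), the factor of prolonged stress, stood at 6.28, 4.52 and 5.05 CPM in chow null and 5.09, 7.49 and 7.48 CPM in Western siAATF, with overlap between the groups. Ern1 (IRE1), a stress sensor, stood at 130.5, 86.4 and 131 CPM in chow null and 73.4, 67.6 and 39.6 CPM in Western siAATF (edgeR adjusted p = 0.0578). Of 20 p53 targets 1 rose, against 1.26% of all genes: Ddit4l, for which chow null had no count at all. Its 33 counts in Western siAATF were at least 21.6-fold higher than a floor of 3 counts over the chow null group. Cdkn1a (p21), a cell cycle inhibitor, stood at 4.57, 10.7 and 5.31 CPM in chow null and 3.76, 1.13 and 9.68 CPM in Western siAATF, and at 61.2, 21.5 and 27.6 CPM in Western null, and did not pass against chow null. Of 17 periportal genes 1 fell, against 1.17% of all genes: Cdh1, E-cadherin. Cdh1 stood at 50.3, 28.2 and 32.8 CPM in chow null and 13.9, 14.5 and 12.8 CPM in Western siAATF. Cela1, an elastase from the list of pancreas genes, fell, at 14.6, 16.4 and 13.3 CPM in chow null and 2.87, 2.95 and 6.602 CPM in Western siAATF. The stress list had 7 genes higher without Western siAATF replicate 3 and 0 without chow null replicate 1 or 3 or Western siAATF replicate 1; calls were also lost for Cdh1 (chow null replicate 1 or 3 or Western siAATF replicate 1), Cela1 (chow null replicate 1 or 3 or Western siAATF replicate 1) and Ddit4l (chow null replicate 3).

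The adipocyte list had 2 of 6 members tested, Cfd and Fabp4, and both rose, against 1.26% of all genes. Cfd, adipsin, had 2 counts over the chow null libraries and 263 over the Western siAATF libraries, 232 of them in replicate 3, a ratio of 258 (95% counting interval 70.8 to 2145). The defining adipocyte genes Adipoq, Lep and Plin1 had 0 counts in that replicate and 3, 2 and 2 over the group, all in replicate 1. The Cfd call was lost without any 1 of the chow null libraries (edgeR adjusted p between 0.10004 and 0.262).

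The Western siAATF libraries shared few of their largest departures from chow null. At a level of at least 5 CPM, 110, 52 and 140 genes stood at least 4-fold above every chow null library in replicates 1, 2 and 3, and 39, 30 and 100 stood at least 4-fold below every one. In all 3 replicates 11 stood above: Apoa4, Bmper, Cd63, Dbp, Per2, Per3, Saa3, Tceal8, Ttn, Usp2 and Wee1. Of these, the muscle gene Ttn did not pass (edgeR), and 10974 of its 11026 Western siAATF counts were in replicate 1. In all 3 replicates 8 stood below, Arntl, Elovl3, Etnppl, Idi1, Pitx3 and Slco1a4 among them. Replicate 3 had 71 genes at least 4-fold above all 5 other libraries, replicate 1 had 25 and replicate 2 had 1; the chow null replicates had 5, 8 and 0. Genes of replicate 3 included targets of PPAR alpha, which drives fatty acid burning. Ehhadh, of peroxisomal oxidation, stood at 301, 299.8 and 216 CPM in chow null and 151, 171 and 8144 CPM in Western siAATF. Acot1, a thioesterase, stood at 11.8, 39.0 and 21.6 CPM in chow null and 7.74, 2.04 and 792 CPM in Western siAATF. Cyp4a10, a fatty acid hydroxylase, stood at 118, 344 and 269 CPM in chow null and 99.1, 172 and 3797 CPM in Western siAATF. None of the 3 passed, and in each of them replicate 3 alone was above the chow null range.

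**Figure D5:**
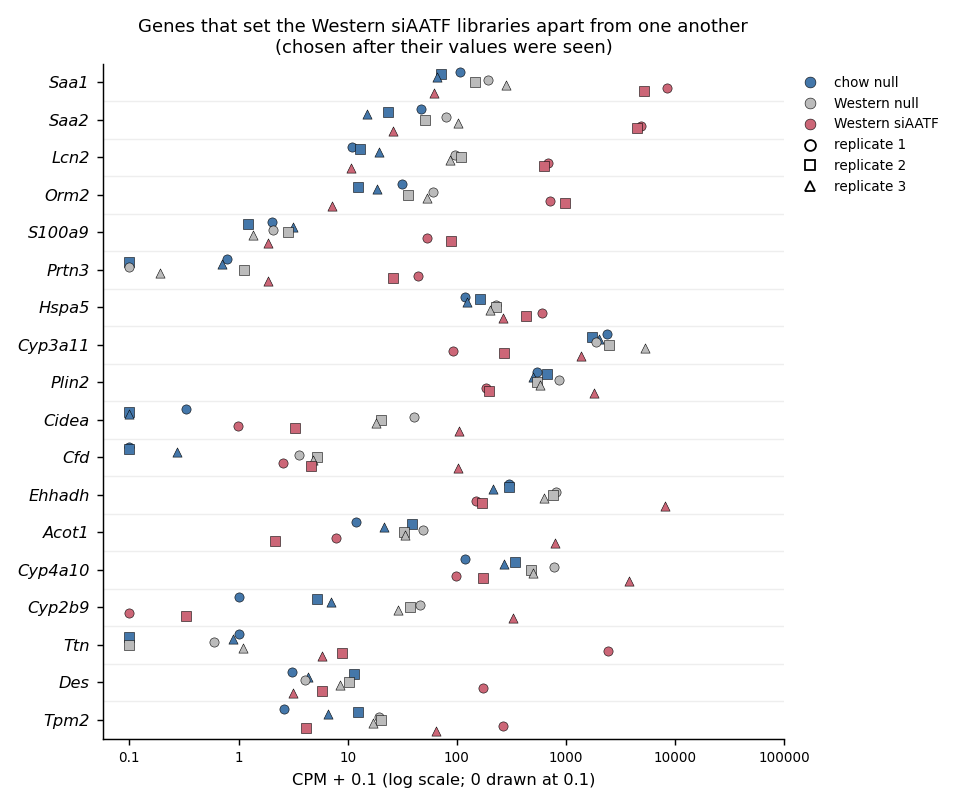
Levels in CPM + 0.1 on a log axis of 18 genes, chosen after their values were seen, in which the 3 Western siAATF libraries (red) differ from one another; shapes are replicates. Saa1, Saa2, Lcn2, Orm2, S100a9 and Prtn3 are high in replicates 1 and 2, Ehhadh, Acot1, Cyp4a10 and Cyp2b9 in replicate 3, and Ttn, Des and Tpm2 in replicate 1. Chow null (blue) and Western null (grey) libraries are the references.

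Genes with the largest difference between Western null and chow null had Western siAATF levels that ranged from the chow null level to the Western null level. Both comparisons use the same chow null libraries, so the values are set side by side. Fam83a had 2 counts in chow null, 283 in Western null and 26 in Western siAATF, a ratio of 25.5 (95% counting interval 6.40 to 222) for Western siAATF to chow null. Cyp2a4, a steroid hydroxylase of female liver, stood at 8.89, 9.20 and 12.8 CPM in Western null and 0.442, 0.681 and 12.3 CPM in Western siAATF, with replicate 3 at the Western null level and the others near the detection limit. Shc2, an adaptor of growth factor receptors, stood at 6.91, 3.41 and 10.2 CPM in Western null and 1.77, 0.681 and 0.880 CPM in Western siAATF. Of genes low in Western null, Grm8, a glutamate receptor gene, stood at 28.5, 22.02 and 36.0 CPM in chow null and 11.5, 14.3 and 9.68 CPM in Western siAATF, and at 0.987, 1.70 and 0.539 CPM in Western null. Its Western siAATF libraries lay between both references without overlap, and the difference from chow null did not pass (edgeR adjusted p = 0.0705). Enho, the gene of the peptide adropin, stood at 12.2, 19.8 and 9.75 CPM in chow null and 10.6, 7.04 and 2.64 CPM in Western siAATF, and at 0, 0 and 0.629 CPM in Western null, and did not pass against chow null. Capn8, a calpain gene, stood at 16.7, 1.13 and 7.14 CPM in chow null and 9.73, 12.0 and 1.76 CPM in Western siAATF, and at 0, 0.681 and 0.180 CPM in Western null. Mup14 stood at 1045, 80.7 and 90.3 CPM in chow null and 328, 662 and 144 CPM in Western siAATF, and at 9.87, 5.79 and 12.8 CPM in Western null. In Capn8 and Mup14 the Western siAATF and chow null ranges overlapped.

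In 13 of the 36 lists 0 members passed the edgeR test, which does not show that they were at the chow null level. Plasma protein genes of hepatocytes had a median log2 fold change of -0.21, with 6 of 24 under an unadjusted p of 0.05, 3 past the threshold by DESeq2 and 0 by limma-voom. Alb, albumin, stood at 40589.7, 59777 and 48195 CPM in chow null and 27935, 32470.3 and 21927 CPM in Western siAATF, without overlap. Pericentral genes, which mark the zone around the central vein, had a median of -0.30, with 6 of 15 under an unadjusted p of 0.05, 3 past the threshold by DESeq2 and 0 by limma-voom. Cyp1a2, a cytochrome of that zone, stood at 402, 860.0 and 613 CPM in chow null and 154, 146 and 368 CPM in Western siAATF, without overlap. Oxidative phosphorylation genes, which build the respiratory chain, had a median of 0.42, with 7 of 21 under an unadjusted p of 0.05, 2 past the threshold by DESeq2 and 0 by limma-voom. Cox6c, one of them, stood at 99.2, 64.9 and 78.5 CPM in chow null and 121, 187 and 126 CPM in Western siAATF, without overlap. Antigen presentation genes had a median of 0.48, with 4 of 14 under an unadjusted p of 0.05, 2 past the threshold by DESeq2 and 1 by limma-voom. H2-Eb1, a class II chain, stood at 9.60, 12.4 and 18.02 CPM in chow null and 33.2, 18.6 and 44.0 CPM in Western siAATF, and at 104, 131 and 108 CPM in Western null. Cell cycle genes had a median of 0.29, with 5 of 14 under an unadjusted p of 0.05, 0 past the threshold by DESeq2 and 0 by limma-voom. Ccnd1, cyclin D1, stood at 21.5, 14.1 and 16.0 CPM in chow null and 16.8, 20.4 and 21.6 CPM in Western siAATF, and at 44.4, 68.1 and 60.7 CPM in Western null. Without Western siAATF replicate 3 the median was 0.16 for oxidative phosphorylation and 0.59 for cell cycle genes.

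For the other lists with 0 calls the median log2 fold change is given with the number under an unadjusted p of 0.05 (edgeR) of those tested, then the numbers past the threshold by DESeq2 and by limma-voom. Interferon response genes gave 0.41 (6 of 21; 0 and 1), endothelial genes 0.30 (4 of 15; 1 and 0) and bile duct markers 0.52 (4 of 8; 0 and 0). Lysosome genes gave 0.05 (2 of 22; 1 and 0), complement and coagulation genes 0.01 (2 of 22; 1 and 0) and red cell genes 0.59 (0 of 4; 0 and 0). Genes for partners of AATF and ribosome production gave 0.13 (0 of 20; 0 and 0), and genes that sense AAV or foreign DNA 0.32 (2 of 9; 0 and 0). Krt23, a keratin listed with the bile duct markers, stood at 0.221, 0.454 and 67.8 CPM in Western siAATF and at most 0.229 CPM in chow null.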

How the data were processed

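RNA sequencing counts of 12 mouse liver libraries were deposited by the authors as 1 table of raw counts per gene. Per the submitters' processing notes, the tools were STAR 2.7.11, featureCounts 2.0.1, DESeq2 1.42.0 and R 4.3.2, and the build GRCm39; how strand and overlaps were handled is not given in the sources used here. Lengths in the count table equal the whole span, introns included, of all 50499 genes, and 10400 genes that lie inside another gene are all listed at 0. Library preparation used the SMART-Seq kit on total RNA, per the labels' protocols. Total counts ranged from 1989409 to 9512246 over the 6 libraries compared, where a floor of 3 counts is between 0.315 and 1.51 CPM before TMM scaling.

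Columns were matched to samples by name. Counts were tested in R 4.3.3 with edgeR 4.0.16 (quasi-likelihood test, robust, TMM library sizes, filterByExpr by group), in 1 fit of all 12 libraries with 8 residual degrees of freedom and Benjamini-Hochberg adjustment over 11934 genes at 0.05. In a fit to simulated data 11415 genes were tested, of which 96 were changed 2-fold and 96 were changed 4-fold. Of these, 13.5% and 75% were recovered, with 4 false calls. Libraries of a group differed in the simulation only by size and random spread, so it held no outlying library. The alternatives were DESeq2 size factors, no filter, DESeq2 1.42.0, limma-voom (limma 3.58.1), the 6 libraries alone, the replicate number as a block, the 18S gene left out, libraries over 25% 18S left out, thinning to 1551264 counts, a gene span correction, genes without overlap, and each library left out. Ratios of genes with 3 or fewer counts in a group are of count sums over library sizes, with exact 95% intervals.

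Members and lists were chosen with earlier results of these data known. Of 687 genes in 36 lists, 4 were not under that symbol, 27 lay inside another gene, 59 were under the filter and 597 were tested. Genes were named by rule: Aatf and 24 set genes, the 15 higher and 15 lower genes of largest fold (higher group averaging 5 CPM or more, no predicted gene models, groups without overlap), the 5 members of each list with the lowest adjusted p, the 10 higher and 10 lower genes of largest fold in Western null against chow null, and up to 6 in each direction that passed against both null groups. The genes named from Western null against chow null and from both null groups met the same conditions of level, gene model and overlap. Other list members named for their role (such as Cry1, Cyp3a11 and Ehhadh), and Bmper, Igk, Tceal8, Ttn, Aox3 and the added muscle, granule and adipocyte markers, were chosen after their values were seen. Some list members are counted but not reported by name here. The low-count filter used all 12 libraries, so list genes near the detection limit in chow null could be tested through counts in other groups.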

Additional observations from a re-analysis of the deposited data

Results flagged for a closer look

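A total of 7 named genes had a diet difference that itself differed between the vectors, tested as the interaction of diet and vector over the 4 groups, which include the chow livers given AAV8-TBG-siAATF. For each gene the log2 difference of western diet from chow is given for both vectors, then the interaction with its standard error. Some named genes were chosen by their difference between Western null and chow null, or for passing against both null groups. These values enter the interaction, so its size in such genes may be inflated. Gpnmb, the macrophage glycoprotein, had diet differences of 7.59 with the control vector and 1.422 with AAV8-TBG-siAATF, a difference of -6.17 ± 1.15 (edgeR adjusted p = 0.0396); its chow null level rests on 5 counts. For Apoa4, the apolipoprotein, they were 5.92 with the control vector and 2.84 with AAV8-TBG-siAATF, a difference of -3.08 ± 0.45 (edgeR adjusted p = 0.00837). Hsd3b5, the steroid dehydrogenase of male liver, gave -8.40 with the control vector and -1.92 with AAV8-TBG-siAATF. The difference was 6.48 ± 0.66 (edgeR adjusted p = 0.000278). Its Western null level was near the detection limit, where fitted folds depend on the model. In both glutathione transferase genes the diet difference had opposite signs under the 2 vectors. Gstm3 gave 2.32 with the control vector and -2.07 with AAV8-TBG-siAATF, a difference of -4.39 ± 0.56 (edgeR adjusted p = 0.00363), and Gsta4 gave 0.48 with the control vector and -2.18 with AAV8-TBG-siAATF, a difference of -2.66 ± 0.50 (edgeR adjusted p = 0.0396). Grm8, the glutamate receptor gene, gave -5.02 with the control vector and -1.15 with AAV8-TBG-siAATF, a difference of 3.87 ± 0.63 (edgeR adjusted p = 0.0182). Enho, the adropin gene, gave -5.004 with the control vector and -0.57 with AAV8-TBG-siAATF, a difference of 4.43 ± 0.87 (edgeR adjusted p = 0.0473); in Western null its counts were all in replicate 3. Over all 11934 genes the interaction passed in 23 (0.193%).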

How the results depend on the processing

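The number of genes that differed (290; 150 higher, 140 lower) depended on the processing. It was 948 (589 higher, 359 lower) with no low-count filter, 655 (351 and 304) with the DESeq2 Wald test, 24 (16 and 8) in a fit to only the 6 libraries compared, 45 (25 and 20) after thinning to equal depth, and 183 (95 and 88) over genes with no overlap. Without the libraries over 25% 18S it was 261 (80 and 181), with 1 chow null library left whose spread is assumed to be that of the other groups. Leaving out 1 library gave 53 (without chow null replicate 3) to 632 (without Western siAATF replicate 3) genes, 24 to 335 higher and 29 to 297 lower. The count was 83 without Western siAATF replicate 1, 146 without chow null replicate 1 and 559 without Western siAATF replicate 2, and 664 (344 and 320) without chow null replicate 2 and Western siAATF replicate 3 together, an alternative chosen after seeing the data. DESeq2 size factors (296), limma-voom (284), leaving out the 18S gene (294), a gene span correction (254) and leaving out chow null replicate 2 (249) kept the count within 1.5 times. With the replicate number as a replicate block 141 genes passed (78 higher, 63 lower); same-numbered libraries did not deviate together (r = -0.104, -0.378 and -0.0534 over genes), and not every library correlated best with its own number. Of the 69 genes that passed among the 215 chosen by the naming rule, 5 (Apoa4, Arntl, Etnppl, Saa3 and Slco1a4) passed in every alternative that tested them, and in none of the alternatives did any of the 69 change sign. Plin2, not called with all libraries, was reversed at -1.60 without Western siAATF replicate 3 and -1.47 without it and chow null replicate 2; single-library omissions gave -1.60 to 0.80. Thinning and the removal of overlapping genes leave fewer genes to test by construction. Of the 69 genes, 63 were still tested after thinning, and 18 passed. Over genes with no overlap 52 were tested and 50 passed. The cause of the shifts was not tested.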

Other observations

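In 3 other families, chosen after their values were seen, some members rose and 0 fell, against 1.26% and 1.17% of all genes. Of 75 ribosomal protein genes tested 8 rose and 0 fell (median log2 fold change 0.57, against 0.02 for all genes): Rpl34, Rpl9, Rps19, Rps12, Rpl41, Rps27a, Rps23 and Rpl17. Of 72 heat shock and chaperone genes 7 rose and 0 fell (median 0.38): Hspe1, Hspa5, Hspa4l, Hsph1, Hspa8, Hsp90aa1 and Stip1. Hsph1, a partner of HSP70 in the cytosol, stood at 33.1, 27.7 and 15.6 CPM in chow null and 123, 125 and 56.8 CPM in Western siAATF (2.01 ± 0.33, edgeR adjusted p = 0.00672). Hsp90aa1, the inducible HSP90, stood at 143, 60.4 and 52.8 CPM in chow null and 357, 444 and 177 CPM in Western siAATF. In both the groups did not overlap. Of 10 small structural RNA genes 6 rose and 0 fell (median 2.13): Terc, Rmrp, Snord3a, Rn7s1, Rn7s2 and Rpph1. With 1 library left out, between 0 (without chow null replicate 3 or Western siAATF replicate 1) and 19 (without Western siAATF replicate 3) ribosomal protein genes rose, and between 1 and 13 chaperone genes rose, lowest and highest without the same libraries; 2 to 6 small RNA genes rose, fewest without chow null replicate 3. With only the 6 libraries compared in the fit the numbers were 0, 0 and 1, and with the gene span correction 2, 5 and 4. The small RNA genes are very short, and shorter genes had higher fold changes over the whole table (Spearman rho of fold change with span -0.273, across genes).

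Single genes outside the lists, also chosen after their values were seen, included Slco2a1, a prostaglandin transporter, which fell, at 84.0, 84.1 and 82.6 CPM in chow null and 28.7, 21.6 and 10.1 CPM in Western siAATF. Aox1, an aldehyde oxidase, fell, at 162, 106 and 138 CPM in chow null and 41.1, 66.9 and 66.5 CPM in Western siAATF. Uap1l1 rose, at 3.54, 2.26 and 3.66 CPM in chow null and 18.6, 12.3 and 28.6 CPM in Western siAATF, and Tceal8 rose, at 2.74, 2.82 and 2.00 CPM in chow null and 14.2, 18.2 and 16.7 CPM in Western siAATF. In these 4 genes the groups did not overlap.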
